A study of Mus musculus with 6 samples.

Results

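This report covers 8 genes for the giant filament proteins, the M-band and the myosin-binding proteins of the skeletal muscle sarcomere: Ttn (titin), Neb (nebulin), Myom1, Myom2 and Myom3 (the myomesin family), and Mybpc1, Mybpc2 and Mybph (myosin-binding proteins C and H). They were chosen by gene symbol and not by a threshold on their values, though with earlier results of these data known. All 8 were found among the 16854 genes of the deposited expression table, and all 8 passed the filter on low values (a normalised count of at least 10 in at least 3 libraries). Mybpc2 passed through its control libraries alone.

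The RNA came from C2C12, an immortalised line of mouse myoblasts that stops dividing and fuses into myotubes when serum is withdrawn. Confluent cells were moved to medium with 2% horse serum and messenger RNA was sequenced on day 3. The control group of 3 libraries carried a scrambled hairpin, and the knockdown group of 3 libraries stably expressed a short hairpin RNA against Adamtsl2, a secreted glycoprotein of the extracellular matrix. The study asked how loss of Adamtsl2 changes the RNA of differentiating myoblasts. How many hairpins and cell clones were used, and whether the libraries of a group came from separate cultures, is not stated in the labels. The effect of Adamtsl2 loss therefore cannot be told apart from other effects of the hairpin or of the selected cells, and p-values measure the spread between these libraries, which may be technical.

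Reads assigned to genes totalled 37346439 to 50329438 per library, so that 1 read was worth 0.829 to 1.26 normalised counts. Normalised counts are read counts divided by a size factor for the library. Adamtsl2 itself was at 1325, 1266 and 1307 normalised counts in the controls and at 23.2, 21.7 and 7.83 in the knockdown libraries. The third knockdown library stood apart from the other two: its log2 values correlated with theirs at 0.917 and 0.920 across genes, against 0.993 to 0.996 for every other pair within a group. The nuclear RNA Malat1 took 2.83% of its reads, against 0.511% and 0.515% in the other knockdown libraries and 0.302% to 0.333% in the controls. Neat1, also a nuclear RNA, rose in all 3 knockdown libraries, from 12757 ± 1043 to 59038 ± 2737 normalised counts (SD, n = 3, log2 change 2.21 ± 0.14, SE, limma adjusted p = 1.0e-04), and the part of RNA quality in the results was not tested. Results are therefore also given without it where this matters.

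The sarcomere is the contractile unit of striated muscle, bounded by Z-discs and centred on the M-band. Titin is a giant elastic protein that runs from the Z-disc to the M-band and holds the thick filament in place, and nebulin runs along the actin thin filament. Myomesins tie neighbouring thick filaments and titin together at the M-band, while the myosin-binding proteins sit along the thick filament and modulate the myosin heads. These genes are expressed in muscle cells that have left the cell cycle and begun to assemble myofibrils.

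All 8 genes fell in the knockdown libraries, by 124-fold (Ttn) to 841-fold (Myom3) as the ratio of group means. Without the third knockdown library the range was 109-fold (Myom2) to 1206-fold (Myom3), with Ttn at 161-fold. With all libraries, the fitted log2 changes (knockdown over control) ran from -6.98 for Myom1 to -9.78 for Myom3, with a median of -7.52. Each passed the test used throughout, which was limma on log2(normalised count + 1) with Benjamini-Hochberg adjustment over 16245 genes and a threshold of 0.05. By the same test 23.5% of all genes tested fell and 21.7% rose, and the median log2 change of all genes was -0.0013. A fitted fall of at least 100-fold, a threshold chosen after the values were seen, was found for 8 of 8 members and for 1.15% of all genes tested. Genes with low control values cannot reach such a fall on this scale, and the 1.15% is a share of all genes, these included. Every knockdown library was below every control library for all 8 genes, as it was for 32.7% of all genes tested. In bulk RNA, fewer cells expressing these genes and less RNA per cell cannot be told apart.

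As a share of all reads, the 8 genes together took 0.940%, 0.887% and 0.808% in the controls. In the knockdown libraries they took 0.00678%, 0.00554% and 0.00657%. In reads, this was 410207, 331206 and 406776 for the controls, against 2624 to 3346 per knockdown library. Of the members' summed normalised counts, Ttn supplied 46.1%, 44.2% and 41.7% in the controls and 45.8%, 44.9% and 74.0% in the knockdown, so that its share stood apart in the third knockdown library alone. Mybph supplied 18.8%, 18.4% and 21.9% in the controls and 9.59%, 10.6% and 1.41% in the knockdown, lower in every knockdown library.

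**Figure D1:**
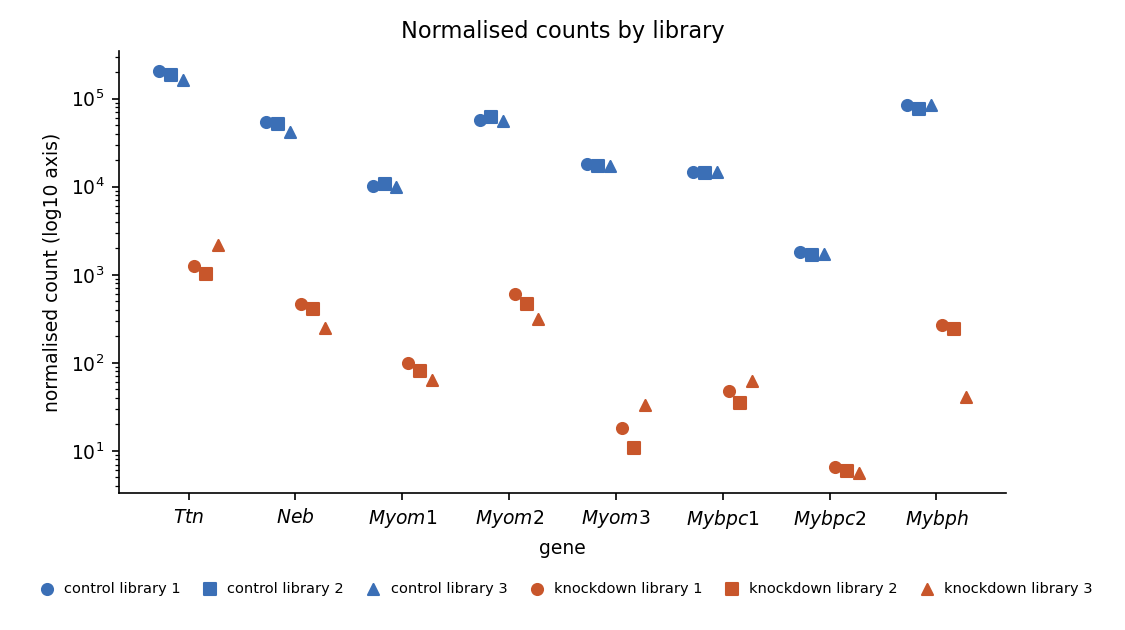
Normalised count (log10 axis) of each of the 8 genes in each library, with controls in blue and knockdown libraries in orange, and the marker shape giving the library number. Every orange point lies below every blue point of the same gene, and the third knockdown library is the highest of its group for Ttn, Myom3 and Mybpc1 and the lowest for the other 5 genes.

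The genes lie on 7 chromosomes in the build GRCm38 (GENCODE M21). Ttn occupies chr2:76703980-76982547 on the minus strand, with 347 exons in its longest transcript and an encoded protein of 35213 residues. Neb lies on the same chromosome and strand at chr2:52136647-52378474, with 157 exons and 7152 residues. The myomesin genes lie apart from each other and all on the plus strand: Myom1 at chr17:71002633-71126856, Myom2 at chr8:15057653-15133541 and Myom3 at chr4:135759715-135815564, with 38, 37 and 37 exons. Mybpc1 is at chr10:88518279-88605152 and Mybpc2 at chr7:44501699-44524656, both on the minus strand. Mybph, the shortest, has 10 exons at chr1:134193448-134201232 on the plus strand and encodes 483 residues.

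Because the 8 genes fell together, their promoters were read for motifs known from muscle genes. RefSeq windows of 250 bases before to 50 after the start (GRCm38.p6) were found for 6 of the 8. Those of 3 genes are printed here, from 5′ to 3′ on the gene's strand and up to the base before the start, because they hold a MEF2 box (Ttn and Myom3) or a pair of motifs side by side (Mybph). Capitals mark the matches.
Ttn: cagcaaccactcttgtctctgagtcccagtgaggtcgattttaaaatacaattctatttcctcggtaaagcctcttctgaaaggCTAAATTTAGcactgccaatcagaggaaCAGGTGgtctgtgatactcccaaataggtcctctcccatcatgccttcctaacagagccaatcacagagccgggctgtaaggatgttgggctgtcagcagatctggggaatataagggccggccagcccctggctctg
Myom3: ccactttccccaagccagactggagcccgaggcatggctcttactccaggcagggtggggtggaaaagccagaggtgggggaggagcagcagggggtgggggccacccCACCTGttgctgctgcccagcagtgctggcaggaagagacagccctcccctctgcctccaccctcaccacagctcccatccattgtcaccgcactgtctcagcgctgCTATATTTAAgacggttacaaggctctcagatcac
Mybph: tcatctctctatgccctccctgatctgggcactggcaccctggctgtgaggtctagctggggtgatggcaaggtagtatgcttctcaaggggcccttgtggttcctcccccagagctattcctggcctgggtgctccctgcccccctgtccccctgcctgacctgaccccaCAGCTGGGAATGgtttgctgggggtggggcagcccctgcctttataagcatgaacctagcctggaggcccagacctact

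These windows are chr2:76982548-76982797 (Ttn, minus strand), chr4:135759465-135759714 (Myom3, plus) and chr1:134193198-134193447 (Mybph, plus). Positions are counted from the start, with negative numbers before it, and both strands were searched. The E-box CANNTG, the core bound by MyoD-family factors, was in all 6 member windows and in 72.3% of 32851 RefSeq promoter windows of the same length. Its form CAGCTG was in 2 of 6 (Mybph and Mybpc1) and in 16.3% of all windows. In Mybph it spans -79 to -74 and is followed at once by GGAATG, the other strand of the MCAT motif CATTCC, at -73 to -68.

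The MCAT motif was in 3 of 6 member windows (Mybph, Ttn and Mybpc2) and in 14.7% of all windows, and in Ttn it lay 11 to 16 bases after the start. A MEF2 box was in 2 of 6, Ttn (-166 to -157) and Myom3 (-35 to -26), and in 3.19% of all windows. A CArG box, the serum response factor motif, was in 1 of 6, Myom1 (-99 to -90), and in 1.63% of all windows. The RefSeq start of Myom1 lies inside the GENCODE gene, so its window is not upstream of the outermost start. An E-box match that is also CAGCTG counts under both names. These are matches of letters and no binding was measured.

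Titin, the elastic filament, stood at 206204, 185061 and 161088 normalised counts in controls 1 to 3 and at 1272, 1013 and 2170 in knockdown libraries 1 to 3. The lowest control was far above the highest knockdown library, and the third knockdown library held the most titin RNA of its group. The log2 change was -7.02 ± 0.30 (SE, limma adjusted p = 2.6e-05, n = 3 against 3), from 184118 ± 22573 (SD, n = 3) to 1485 ± 607. Without the third knockdown library the log2 change was -7.33, and the ratio of means was 161-fold in place of 124-fold.

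Nebulin, the thin filament's long companion, was at 53718, 51464 and 42137 in the controls and at 466, 406 and 246 in the knockdown. Here the third library was the lowest of each group, and the groups did not overlap. The log2 change was -7.08 ± 0.26 (SE, limma adjusted p = 1.6e-05). The ratio of group means was 132-fold, and 113-fold without the third knockdown library.

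Among the M-band genes, Myom1 encodes myomesin itself, which is found in all striated muscle. Its normalised counts were 10250, 10681 and 9813 in the controls and 99.5, 80.3 and 63.7 in the knockdown, a log2 change of -6.98 ± 0.18 (SE, limma adjusted p = 5.7e-06). The controls lay close together (10248 ± 434, SD, n = 3), and no knockdown library came near them.

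Myom2 encodes M-protein, the form known from fast fibres. It was at 57782, 60981 and 55301 in the controls and at 598, 463 and 312 in the knockdown, a log2 change of -7.03 ± 0.24 (SE, limma adjusted p = 1.4e-05). Its knockdown libraries stood in the same order as those of Myom1 and Neb, with the first highest and the third lowest.

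Myom3, a myomesin known from slow and intermediate fibres, had the largest fall of the 8. It was at 18235, 17366 and 17081 in the controls and at 18.2, 10.9 and 33.5 in the knockdown, where it rested on 22, 13 and 30 reads. The log2 change of -9.78 ± 0.38 (SE, limma adjusted p = 1.9e-05) was the 14th lowest of all genes tested. The ratio of means was 841-fold, and 1206-fold without the third knockdown library, which was the highest of its group.

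Of the thick filament's binding proteins, Mybpc1 is the form known from slow fibres and also present in fast ones. It was at 14831, 14107 and 14799 in the controls and at 48.1, 35.1 and 61.5 in the knockdown, with no overlap and a log2 change of -8.25 ± 0.21 (SE, limma adjusted p = 5.5e-06). Mybpc2, the form of fast fibres, was at 1796, 1689 and 1718 in the controls and at 6.63, 5.86 and 5.59 in the knockdown. Its knockdown values rest on 8, 7 and 5 reads, the fewest of the 8 genes. The log2 change of -7.95 ± 0.17 (SE, limma adjusted p = 3.7e-06) is on the log2(value + 1) scale, which understates the fall of a gene this low. The ratio of means was 288-fold.

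Mybph encodes myosin-binding protein H, a shorter relative of the C proteins. It was at 84140, 76988 and 84537 in the controls and at 266, 240 and 41.4 in the knockdown. The controls lay close together (81888 ± 4249, SD, n = 3) while the third knockdown library was far below the other two, at 37 reads against 321 and 287. The log2 change was -9.19 ± 0.71 (SE, limma adjusted p = 1.9e-04), with the widest error of the 8, and it was -8.33 without that library. The ratio of means was then 324-fold in place of 449-fold.

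**Figure D2:**
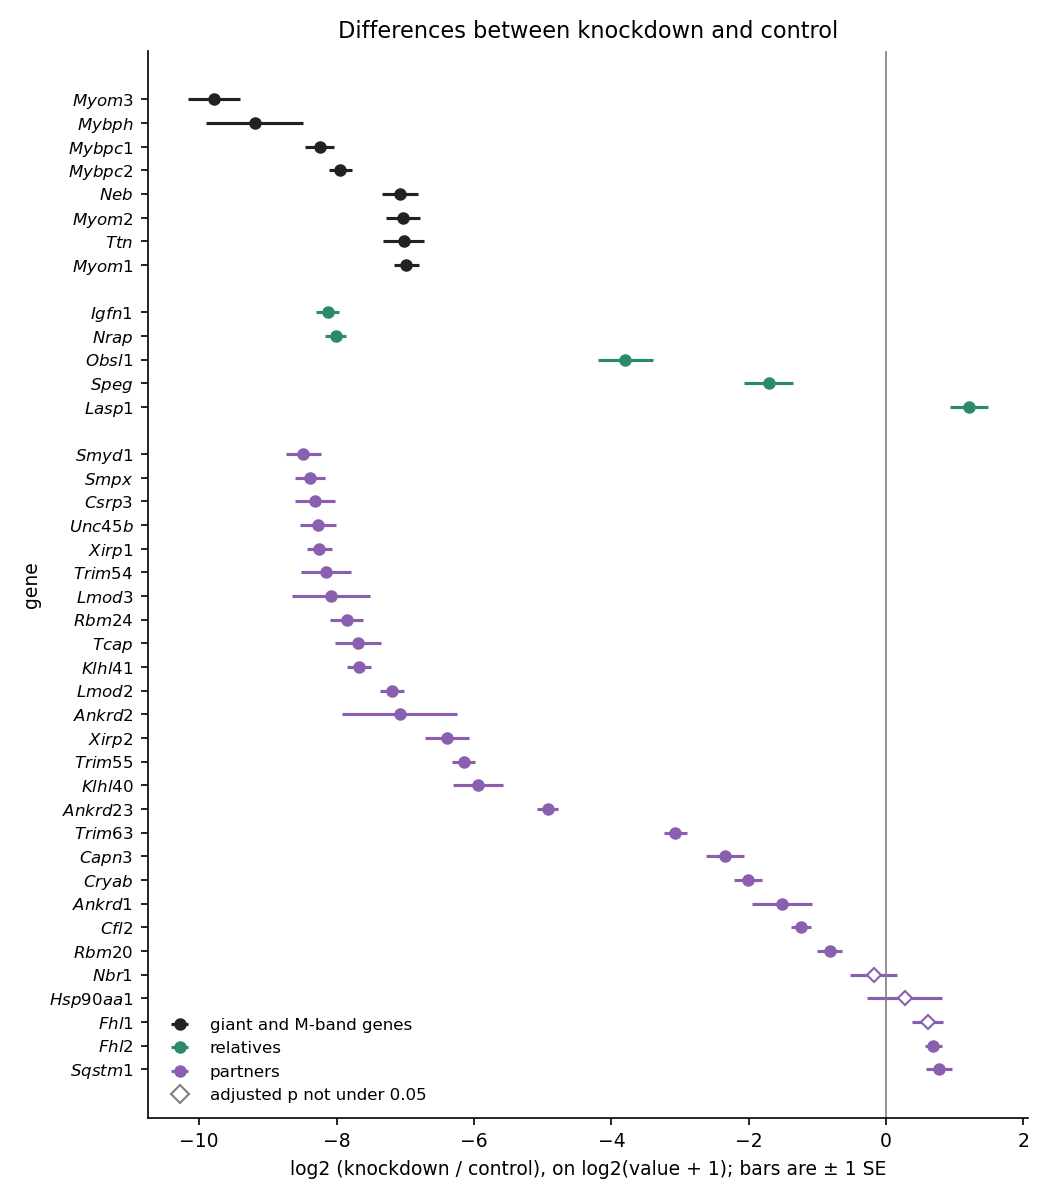
Log2 change (knockdown over control, limma, bars show SE, n = 3 against 3) of the 8 genes, their 5 family relatives and the 27 partner genes, with a line at 0. The 8 members lie between -6.98 and -9.78, while the relatives and partners reach from below -8 to above 0; the point of Xirp2, with 0 reads in the knockdown, depends on the pseudocount.

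Some reads of these genes could belong to a neighbour on the other strand, because the labels do not state whether the counting used strand. Adora1, an adenosine receptor gene on the minus strand, shares 1162 exon bases with Mybph. It was at 2113, 1987 and 2209 in the controls and at 11.6, 6.69 and 43.6 in the knockdown, and reads of the shared bases cannot be assigned to either gene. Myl12a, a myosin regulatory light chain gene, shares 207 exon bases with Myom1 and moved far less (log2 change -0.47 ± 0.14, SE, limma adjusted p = 0.035). With any 1 library but the third knockdown library left out, the adjusted p of Myl12a was 0.093 to 0.14, and it was 0.12 with upper-quartile scaling. Noncoding genes on the other strand also share exon bases with members: Gm13938 (453 with Ttn), Gm48752 (252 with Mybpc1), Gm44646 (192 with Mybpc2) and Gm13522 (45 with Neb). None of these was among the genes analysed here.

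Levels of different genes were compared per kilobase of exon. In the controls Mybph led with 35160 ± 1824 normalised counts per kilobase (SD, n = 3), above 99.7% of the genes tested. Myom2 followed with 6554 ± 322, then Mybpc1 with 3220 ± 90.3 and Myom3 with 2908 ± 99.6. Neb (1847 ± 231) and Ttn (1576 ± 193) came next, since their counts are spread over 26.582 and 116.825 kilobases of exon. Myom1 was at 979.8 ± 41.4 and Mybpc2 lowest at 480.2 ± 15.3. Neighbours in this order did not overlap between their libraries, except Neb and Ttn, although Neb was above Ttn within each of the 3 libraries. With the longest transcript as the length, the control means of Myom1 (1814) and Ttn (1724) changed places.

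In the knockdown libraries the order per kilobase was Mybph (78.4 ± 52.8, SD, n = 3), Myom2 (51.7 ± 16.2), Neb (14.0 ± 4.28), Ttn (12.7 ± 5.20), Mybpc1 (10.7 ± 2.91), Myom1 (7.76 ± 1.71), Myom3 (3.46 ± 1.91) and Mybpc2 (1.67 ± 0.15). Of the neighbours, Myom2 was above Neb and Myom1 above Myom3 without overlap, and the other 5 pairs overlapped. Mybph had the highest mean, with 36.8% of the genes tested below it, but by the longest transcript Myom2 (90.2) was above Mybph (78.7) and Myom1 (14.4) above Ttn (13.9). Myom3, above Neb, Ttn and Myom1 in the controls, was below all 3 of them in the knockdown.

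**Figure D3:**
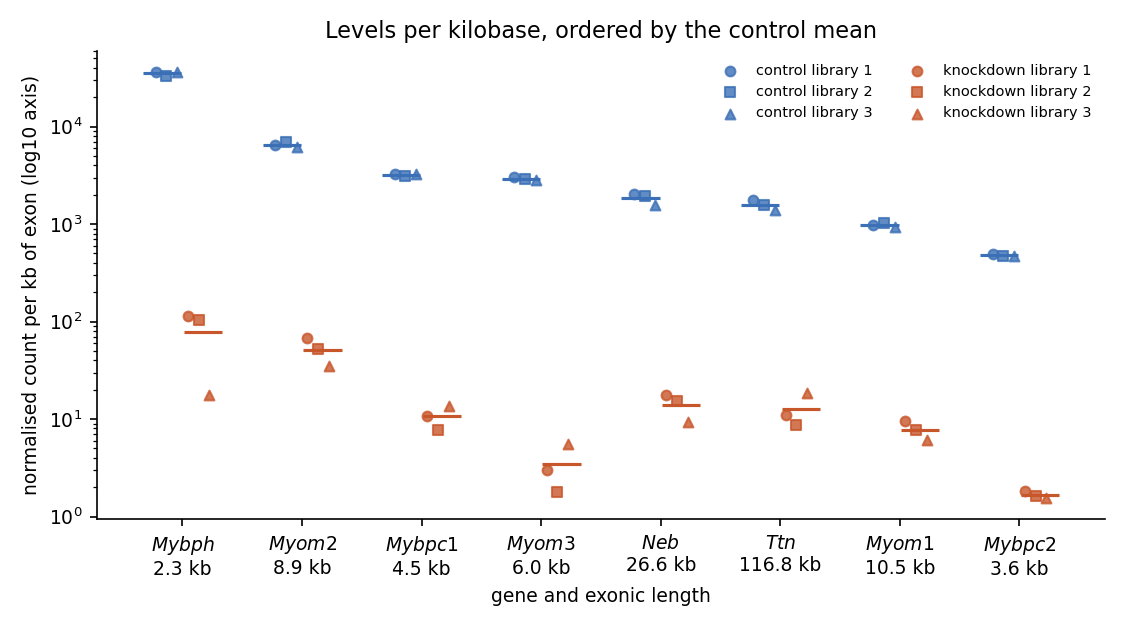
Normalised count per kilobase of exon (log10 axis) of the 8 genes, ordered by their control mean, with 1 point per library and a bar at each group mean. In the controls the genes step down from 35160 for Mybph to 480.2 for Mybpc2, and in the knockdown the mean of Myom3 (3.46) lies below those of Neb, Ttn and Myom1.

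Ratios between members within a library cancel the size factor, apart from a pseudocount of 1 added to each normalised count for the log2 ratios. For a gene as low as Mybpc2 the log2 ratio therefore depends on that pseudocount. In all, 6 ratios were compared by an exact two-sided permutation test over the 6 libraries, which cannot go below p = 0.1. Myom2 per kilobase was 6.66, 6.75 and 6.66 times Myom1 in the controls and 7.10, 6.82 and 5.78 times in the knockdown (difference in log2 ratio -0.05, exact p = 1). The log2 ratio of Neb to Ttn was -1.91 ± 0.05 (SD, n = 3) in the controls and -1.97 ± 1.01 in the knockdown (difference -0.06, exact p = 1). That wide spread came from the third knockdown library: without it the ratio was higher in the knockdown by 0.52.

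Myom3 against Myom1 was the ratio that moved most. Per kilobase, Myom3 was 3.08, 2.82 and 3.01 times Myom1 in the controls and 0.318, 0.235 and 0.912 times in the knockdown. The more abundant of the pair thus changed from Myom3 to Myom1 in the first 2 knockdown libraries. In the third the levels were close by exon length, and the ratio rested on 30 reads of Myom3 and 57 of Myom1. The size of the per-kilobase ratio depends on the length used. By the longest transcript, the control means were 3149.9 for Myom3 and 1814 for Myom1, and the knockdown means 3.75 and 14.4. The log2 ratio fell by 2.80 with no overlap (exact p = 0.1, the smallest the design allows, and 0.6 after Benjamini-Hochberg adjustment over the 6 ratios), so it did not pass. Without the third knockdown library it fell by 3.36.

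For the other 3 ratios the groups overlapped. The log2 ratio of Myom1 to Ttn differed by 0.04 (exact p = 1). That of Mybpc2 to Mybpc1 differed by 0.29 (exact p = 0.4), and by 0.11 to 0.83 over the alternatives, which include other pseudocounts. That of Mybph to Mybpc1 fell by 0.95 (exact p = 0.7), where the knockdown spread was 1.83 (SD, n = 3) against 0.04 in the controls. A p above the threshold does not show that these ratios were equal.

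**Figure D4:**
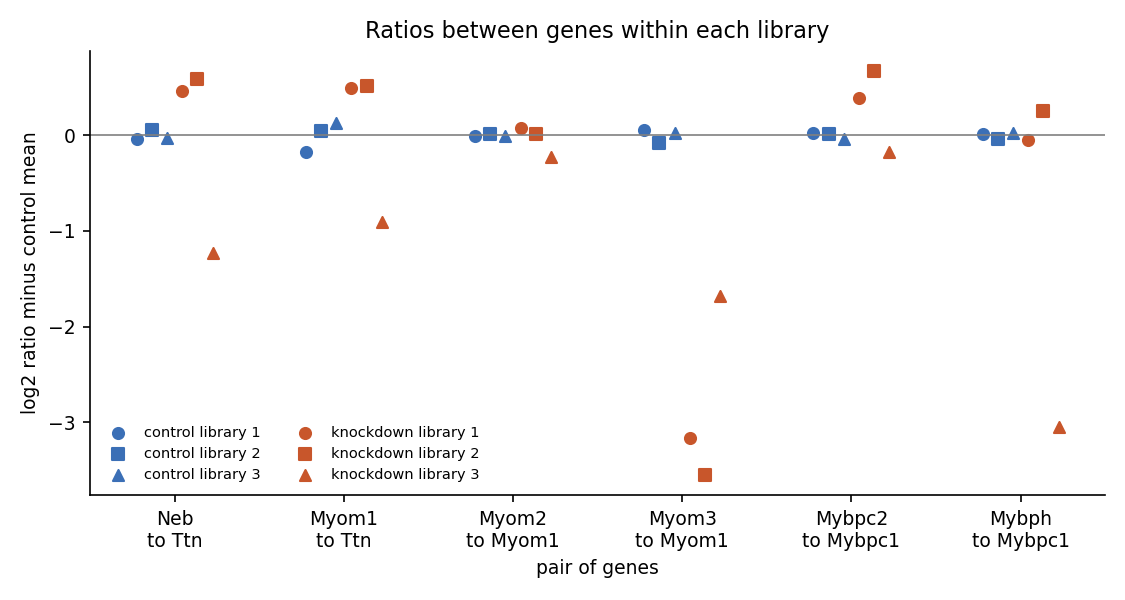
Log2 ratio of 6 pairs of the genes in each library, minus the control mean of that pair, controls in blue and knockdown libraries in orange. Control points lie close together for each pair, knockdown points spread more, least for Myom2 to Myom1, and Myom3 to Myom1 separates the groups (0.78 ± 0.07 against -2.02 ± 0.99 before centring, SD, n = 3).

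The members did not move together in the third knockdown library. Against the mean of the first 2 knockdown libraries, Myom3 was 2.30 times as high, Ttn 1.90 times and Mybpc1 1.48 times. Mybpc2 was at 0.895 times, Myom1 at 0.709, Myom2 at 0.588 and Neb at 0.564. Mybph was at 0.163 times (log2 -2.58), below the 5th percentile of all genes tested (log2 -1.69), and the other 7 lay within the 5th to 95th percentile. These values rest on few reads for Myom3, Mybpc1, Mybpc2 and Mybph.

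In the third control library Ttn and Neb were at 0.823 and 0.801 times the mean of the other controls, and the other 6 members at 0.931 to 1.05 times. The median of all genes tested was 1.00 times. For the 61 genes tested whose longest transcript is at least 15 kilobases, a comparison chosen after the values were seen, the median was 0.866 times in the third control and 0.744 times in the third knockdown library. With at least 5 or at least 10 kilobases the median was 0.936 or 0.886 times in the third control. In the third knockdown library it was 0.724 or 0.756 times. For the 4610 genes under 2 kilobases it was 1.07 times in the third control and 1.44 times in the third knockdown library. In that knockdown library Ttn was at 1.90 times, above these medians, and Neb at 0.564 times. The part of transcript length in the values of Ttn and Neb was not tested.

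**Figure D5:**
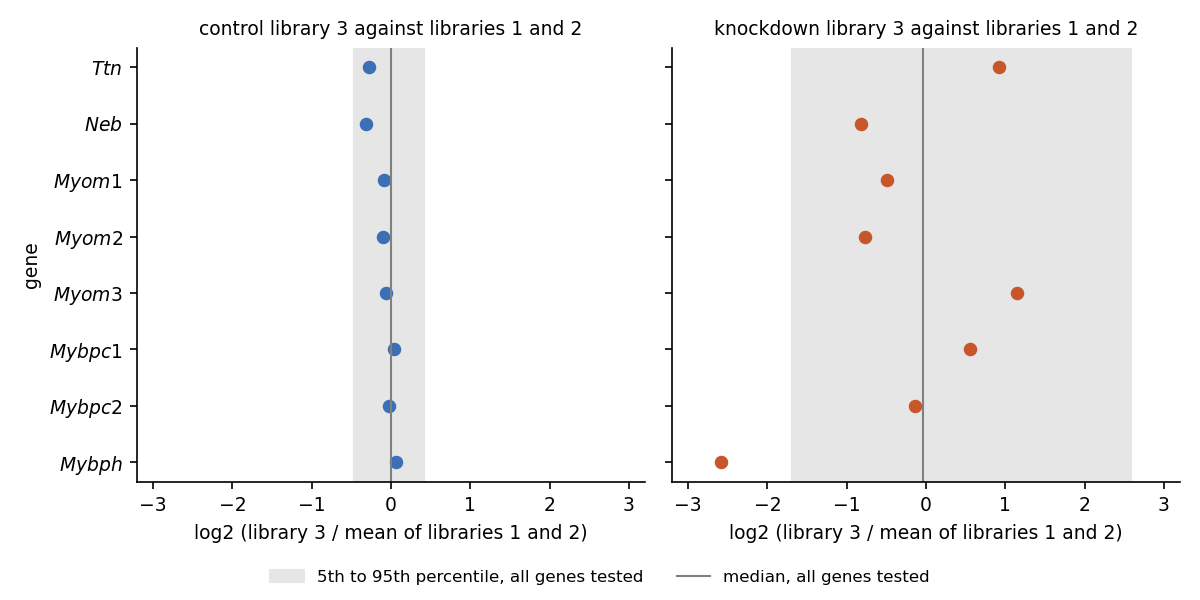
Log2 of the third library over the mean of the first 2 libraries of its group, for the 8 genes, with the 5th to 95th percentile of all genes tested shaded and their median as a line. In the controls (left) all 8 genes lie inside a narrow band, and in the knockdown (right) they spread from -2.58 for Mybph to above 1 for Myom3.

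Of 8 family relatives, 5 were analysed and 4 of these fell, while 1 rose, with a median log2 change of -3.80. Over all genes tested, 23.5% fell and 21.7% rose. Mybpc3, Mybphl and Nebl were not analysed here. Igfn1, an immunoglobulin-domain protein that binds the Z-disc, was at 4500, 4504 and 4133 in the controls and 17.4, 13.4 and 13.4 in the knockdown (log2 change -8.13 ± 0.16, SE, limma adjusted p = 3.7e-06). Nrap, the nebulin relative of early myofibril assembly, changed by -8.02 ± 0.16. Both had a fitted fall of over 100-fold, like the members.

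The other relatives moved less. Obsl1, a cytoskeletal adaptor that binds titin and myomesin, was at 37484, 36453 and 37253 in the controls and 3824, 3569 and 1392 in the knockdown (log2 change -3.80 ± 0.40, SE, limma adjusted p = 6.3e-04). Speg, a kinase of the same giant family, was at 12026, 11902 and 11048 in the controls and 5022, 4539 and 1980 in the knockdown, a log2 change of -1.71 ± 0.36 (limma adjusted p = 0.011). Lasp1, the small nebulin-family protein of many cell types, rose from 3209, 3665 and 3249 to 9910, 9372 and 5037 (log2 change 1.20 ± 0.28, limma adjusted p = 0.014). Its adjusted p was 0.059 without control 1 or control 3.

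Among 27 genes for binding partners, assembly factors, turnover factors and splicing regulators of these proteins, 22 fell, 2 rose and 3 did not pass. Their median log2 change was -6.15, or -5.94 with Xirp2 at its bound, and 12 had a fitted fall of at least 100-fold. In the same fit 23.5% of all genes tested fell, 21.7% rose and 1.15% had a fall of at least 100-fold. Without the third knockdown library all 27 passed, 23 down and 4 up, in a fit that called 39.9% of all genes tested lower and 38.6% higher. Of the 27, 2 passed the filter on low values through the controls alone, and Xirp2, an actin-binding protein of the muscle junction, had 0 reads in all 3 knockdown libraries. Its mean of 83.8 normalised counts in the controls was at least 30.1-fold higher than the level that 3 reads per library would give.

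Assembly factors were among those with the smallest adjusted p. Smyd1, a methyltransferase needed for thick filament assembly, was at 11112, 10697 and 11440 in the controls and 44.8, 24.3 and 24.6 in the knockdown (log2 change -8.48 ± 0.26, SE, limma adjusted p = 8.6e-06). Klhl41, which stabilises nebulin, changed by -7.68 ± 0.18 and Lmod2, a nucleator of thin filaments, by -7.20 ± 0.18. Xirp1, an actin-binding protein of growing myofibrils, changed by -8.25 ± 0.18, and Smpx, a small protein of the muscle membrane skeleton, by -8.39 ± 0.22. Trim55, a ubiquitin ligase that binds titin near the M-band, changed by -6.15 ± 0.17.

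The 5 genes that rose or did not pass were Fhl2, Sqstm1, Fhl1, Nbr1 and Hsp90aa1. Fhl2, a LIM-domain protein that binds titin, was at 2399, 2685 and 2504 in the controls and 4386, 4336 and 3562 in the knockdown (log2 change 0.69 ± 0.13, SE, limma adjusted p = 0.0067). Sqstm1, an autophagy receptor at the titin kinase, rose by 0.77 ± 0.19 (limma adjusted p = 0.019), but its adjusted p was above 0.05 when any of 5 libraries was left out, reaching 0.083, and 9.1e-08 without the third knockdown library. Fhl1, a relative of Fhl2, stood at 0.61 ± 0.23 (limma adjusted p = 0.073), and it passed without the third knockdown library (0.85, limma adjusted p = 5.1e-08), with upper-quartile scaling (0.019), with edgeR (0.045) and with DESeq2 (0.013).

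The remaining pair turned direction with the third knockdown library. Nbr1, the autophagy receptor that joins Sqstm1, was at 8516, 8533 and 3691 in the knockdown against 7201 to 7394 in the controls (log2 change -0.18 ± 0.34, SE, limma adjusted p = 0.71), and at 0.23 without that library. Hsp90aa1, a chaperone of myosin folding, was at 10635, 11501 and 43395 in the knockdown against 13784 to 15186 in the controls (log2 change 0.27 ± 0.55, limma adjusted p = 0.72), and at -0.38 without it.

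The splicing regulators of titin, named here after their values were seen, moved unequally. Rbm24, a muscle splicing factor, was at 3484, 3700 and 3473 in the controls and 9.95, 17.6 and 16.8 in the knockdown (log2 change -7.85 ± 0.24, SE, limma adjusted p = 9.0e-06). Rbm20, which sets the length of titin's spring region, was at 5685, 5684 and 5176 and at 3522, 3533 and 2436 (log2 change -0.82 ± 0.18, limma adjusted p = 0.012, but 0.054 without control 1 and 0.051 without control 2). The deposited table gives 1 value per gene, so titin isoforms were not analysed here.

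The 16 neighbours counted here are the genes tested nearest to each member, 1 on each side, that do not overlap it. Of these, 6 fell, 3 rose and 7 did not pass, beside falls in 23.5% and rises in 21.7% of all genes tested. Adora1 and Myl12a, which overlap Mybph and Myom1 and also fell, are not among the 16. Without the third knockdown library 8 of the 16 fell and 5 rose, while 39.9% of all genes tested fell and 38.6% rose. The share of neighbours that rose lies near the background in both fits. Beside Ttn, Ccdc141 was at 9822, 9531 and 9072 in the controls and 768, 824 and 771 in the knockdown (log2 change -3.59 ± 0.10, SE, limma adjusted p = 7.2e-06), and Plekha3 rose by 0.55 ± 0.18 (limma adjusted p = 0.049, but 0.11 to 0.16 with any 1 library but the third knockdown library left out, and 0.067 without a variance trend). Beside Neb, Arl5a fell by 1.11 ± 0.24 on the log2 scale (limma adjusted p = 0.012, and 0.052 without control 1). Beside Myom1, the myosin light chain gene Myl12b rose by 0.92 ± 0.11 (limma adjusted p = 0.0011), and next to Mybpc2, Fam71e1 rose by 2.20 ± 0.25 (limma adjusted p = 8.4e-04) from low levels.

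Beside Myom2 and Myom3, the neighbours that passed the threshold were low genes. Gm45274, 6883 bases before Myom2, was at 32.7, 40.4 and 35.2 in the controls and at 0, 0.836 and 0 in the knockdown. Grhl3, 186085 bases before Myom3, was at 163, 181 and 150.1 in the controls and at 0.829, 0 and 3.35 in the knockdown. Both knockdown groups rest on 0 to 3 reads per library.

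At the Mybph locus on chromosome 1, the nearest genes tested on both sides that do not overlap Mybph fell with it. Chil1, a chitinase-like gene 3267 bases before it, was at 758, 697 and 797 in the controls and at 3.32, 1.67 and 11.2 in the knockdown. Myog, the gene of the muscle transcription factor myogenin, starts 88757 bases after Mybph and was at 40656, 42385 and 43535 in the controls and at 564, 519 and 461 in the knockdown (log2 change -6.36 ± 0.12, SE, limma adjusted p = 3.7e-06).

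Genes with profiles most like these were sought by the root-mean-square distance of centred log2 values over the 6 libraries. The candidates were 11044 genes whose mean value reached 100. Members, mitochondrially encoded genes, genes without a unique symbol and those named Gm with a number or ending in Rik were left out. Closest to Ttn was Myh2, the myosin heavy chain of type IIa fibres, at a distance of 0.108, with 3943, 4131 and 3600 in the controls and 27.4, 22.6 and 41.4 in the knockdown. Like Ttn, it was highest in the third library of its knockdown group. Next were Sstr2 (0.174), a somatostatin receptor gene with 1, 1 and 3 knockdown reads, and Nmrk2 (0.195), a muscle nicotinamide riboside kinase gene, against a median distance of 3.52 over all candidates.

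Closest to the mean of the members were Nrap (0.077), Igfn1 (0.114) and Casq1 (0.121), the calcium-binding protein of the sarcoplasmic reticulum, against a median of 3.94. Among the members, Myom1 and Myom2 were nearest to each other (0.095), then Neb and Myom2 (0.102), and Ttn and Mybph were farthest apart (1.60). These distances share the 6 libraries and their size factors and are a description of them.

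The label of differentiated C2C12 was checked against marker genes. All 8 skeletal muscle markers were detected in every library and fell in the knockdown, their summed normalised counts going from 1045851 to 1064253 in the controls to 7421 to 8476. Of the 5 fibroblast markers analysed, Dcn and Postn rose (log2 change 4.22 ± 0.31 and 1.81 ± 0.23, SE, limma adjusted p = 1.7e-04 and 0.0014), 3 did not pass (4 rose and 1 fell without the third knockdown library, when 38.6% of all genes tested rose), and the sum went from 32484 to 33421 in the controls to 145110 to 187205. Thy1, Nppa, Nppb, Myl7, Adipoq, Fabp4, Plin1, Cidec and Ptprc, also on the marker lists, were not analysed here. Of the markers analysed, none was at 0 throughout a group. Of the smooth muscle markers 4 of 5 fell, in a fit where 23.5% of all genes tested fell and 21.7% rose. Of the heart markers tested Myh6 fell from 2032 to 2150 to 10.9 to 16.8 while Tnni3 did not pass (log2 change -2.26 ± 0.86, limma adjusted p = 0.077, but 7.8e-04 without the third knockdown library). The heart marker Ryr2 did not pass the filter on low values and was higher in the knockdown. It was at 4.36, 6.32 and 0 in the controls and at 9.95, 23.4 and 88.3 in the knockdown. The 1 adipocyte marker analysed, Pparg, rose (1.28 ± 0.18, limma adjusted p = 0.0021), and the leukocyte marker Cd68 did not pass (0.28 ± 0.29, limma adjusted p = 0.48). The part of a change in cell makeup in the fall of the 8 genes was not tested.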

How the data were processed

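Polyadenylated RNA of 6 libraries was sequenced as paired reads, per the labels' protocols. Per the submitters' processing notes, the tools included Trimmomatic 0.36, featureCounts (from Subread 1.5.2) and DESeq2, with GRCm38 as genome build; the aligner, annotation release and strand setting were not given in the sources used here. Each deposited signal value is a gene count that the authors divided by a size factor per library, and all were whole multiples of 1 read within 0.01 reads. The authors' deposited log2 fold changes, used only as a check of sign and size, were -6.95 for Ttn and -9.75 for Myom3; the authors' deposited table also holds p-values, which were not used.

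Groups came from the sample titles. The fit used limma 3.58.1 (R 4.3.3), on log2(value + 1), allowing a mean-variance trend and no covariates, for genes with at least 10 in at least 3 libraries (16245 tested, 609 not), two-sided with Benjamini-Hochberg adjustment over all of them at 0.05. Ratios were tested by exact permutation. Lengths, exons and neighbours came from GENCODE M21, which held 16812 of the 16854 identifiers, and promoters from RefSeq (6 of 8 members matched). Alternatives were no filter or a minimum of 50, pseudocounts of 0.5 and 5, TMM or upper-quartile scaling, no trend, a replicate block, recovered reads in edgeR 4.0.16 or DESeq2 1.42.0, leaving out each library, a threshold of 0.01, a 2-fold minimum, and transcript in place of exon length. For neighbours, markers and other named genes these were applied after seeing the data. The fit was tested on simulated data. Recovered reads of replicates differed by more than sampling noise (chi-square per gene at least 3.75). Each library counted as 1 sample, though this difference does not show that the libraries came from separate cultures.

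Genes named were the members, list genes that rose or did not pass, up to 6 per list with the smallest adjusted p among those that fell, Adamtsl2, Myog, neighbours past the threshold, and the 3 most similar genes; others are said to be chosen after their values were seen. Marker genes and genes that share exon bases with a member are given as checks. From the list of relatives, 1 gene is not reported here and was left out of its counts. The members and lists were chosen with earlier results of these data known.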

Additional observations from a re-analysis of the deposited data

How the results depend on the processing

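All 8 members fell past the threshold in each of the alternatives run, with a highest adjusted p of 0.0025 (limma, Mybph with 1 library left out). Their log2 changes moved most for Mybph (-9.66 to -8.33 over the alternatives), Mybpc2 (-7.30 with a pseudocount of 5) and Myom3 (-10.18 to -9.41). Upper-quartile scaling moved the median log2 change of all genes to 0.12 and edgeR to 0.11. Adjusted over all genes, the relatives that rose numbered 0 to 1 with 1 library left out and 0 at an adjusted p of 0.01. The partners that rose numbered 1 to 4 with 1 library left out, 1 at an adjusted p of 0.01 and 0 with a 2-fold minimum. With the replicate number as a block 1 partner rose (Sqstm1 had an adjusted p of 0.060 by limma), and the block changed no call of a member. Deviations of same-numbered libraries correlated at 0.017, 0.105 and 0.143, and those of differently numbered libraries at -0.147 to 0.116. These values do not settle whether the numbers mark pairs, and the main fit did not pair the libraries.

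Leaving out the third knockdown library turned the sign for Nbr1 (log2 change 0.23), Hsp90aa1 (-0.38, against up to 0.63 without another library) and 3 of the ratios (Neb to Ttn, Myom2 to Myom1 and Mybph to Mybpc1). With 1 library left out in turn, the differences in log2 ratio ran from -0.38 to 0.52 for Neb to Ttn, -0.20 to 0.51 for Myom1 to Ttn (-0.05 without control 1 and -0.19 without the first knockdown library), -0.11 to 0.044 for Myom2 to Myom1 and -1.55 to 0.10 for Mybph to Mybpc1. The cause was not tested. Genes called over the whole table numbered 7342, and 12754 without that library. Of the flanking genes, 2 to 5 rose with 1 library left out and 1 with a 2-fold minimum. Ankrd1, a titin-binding repeat protein named after its value was seen, fell (adjusted p = 0.033 by limma) but not with edgeR (0.068) or upper-quartile scaling (0.060), nor without any 1 library but the third knockdown library (0.074 to 0.11). By the longest transcript in place of all exons, control levels per kilobase were 2184 for Neb, 1814 for Myom1, 11433 for Myom2, 3149.9 for Myom3 and 3717 for Mybpc1. Depth limits Mybpc2 and Myom3, whose knockdown values rest on 5 to 30 reads.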
